A study of Mus musculus with 30 samples.

Results

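The elastic fibre genes are a set of 10 mouse genes, Eln, Fbn1, Fbn2, Fbln1, Fbln2, Fbln5, Efemp1, Efemp2, Mfap4 and Mfap5, taken by name from the 43629 genes counted in each library. All 10 were found and all 10 passed the filter on low counts in every comparison. They were followed in 30 RNA-seq libraries from hearts of wild-type C57BL/6J mice. The MI groups came from mice whose chest was opened, pericardium removed and coronary artery tied, and the sham groups from mice that had the same operation without the tie. Hearts were taken 2, 4 or 7 days later, with 5 libraries in each of the 6 groups. The age and sex of the mice and the part of the heart taken are not given in the labels, so how much infarcted and how much distant muscle each library holds is not known. Libraries of a group are labelled as separate samples, so that p-values reflect how far those samples scatter.

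Elastic fibres give arteries, lung, skin and heart valves their recoil. They consist of an amorphous core of crosslinked elastin laid on a scaffold of microfibrils, which are built from fibrillins. Fibulins and microfibril-associated proteins bring tropoelastin, the soluble precursor, to that scaffold, and lysyl oxidases crosslink it. Healthy heart muscle holds little elastin outside its vessels and valves, and fibroblasts and smooth muscle cells are the usual producers.

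Library totals ran from 7841930 to 14070017 counts, and between 18668 and 20905 genes had at least 1 count. CPM is a gene's count scaled to a library total of 1000000, and a gene with 0 counts could hold up to 0.213 to 0.383 CPM by library (3 counts, counting error only). The lowest count behind any value of the 10 genes was 12, for Fbn2. The tissue label was checked on 5 cardiomyocyte genes (Myh6, Tnnt2, Actc1, Ryr2 and Myl2), which together made up 25700 to 32310 CPM in MI day 7 libraries and 39440 to 47700 CPM in sham day 7 libraries. Lung transcripts (Sftpc and Scgb1a1 together at least 50 CPM) were present in 6 libraries: MI day 7 replicate 2, sham day 4 replicates 2 and 3, and sham day 7 replicates 1, 2 and 3. No day 2 library held them at that level. Skeletal muscle transcripts summed to 1352 CPM in MI day 7 replicate 4, against 29.23 to 48.6 CPM in the other MI day 7 libraries. The sample descriptions of the day 2 libraries carry 1 number, and those of the day 4 and day 7 libraries another. Day 2 and that number thus cannot be told apart, while MI and sham of 1 day share it.

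By day 7 after the infarct 8 of the 10 elastic fibre genes had risen, from 3.12-fold for Efemp2 to 6.45-fold for Eln, and they had reached that point along different courses. In edgeR fits of 1 day at a time, Mfap5, Efemp2 and Fbln2 were called higher from day 2, Fbn1, Fbn2 and Mfap4 from day 4, and Eln and Fbln5 at day 7. These steps depend on the threshold for Eln, whose day 4 difference was as large as that of Mfap4 and was called by other fits, and for Fbn1, which other fits called higher at day 2. Fbln1 and Efemp1 were called lower in MI hearts at days 2 and 4 and neither was called at day 7, and their day 4 calls were lost without the libraries with lung transcripts. The day 2 mean of Fbln5 was also lower in MI hearts, by less, with an edgeR adjusted p just over the threshold and a call in other fits. Calls rest on edgeR's 2-sided quasi-likelihood test, at a threshold of 0.05 on p-values adjusted by the Benjamini-Hochberg method across every gene tested. Fold changes given as log2 values carry their standard error (SE), and levels their standard deviation over the 5 libraries (SD).

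Counted by day, 3 genes were called higher and 2 lower at day 2, where 24.1% of all tested genes were called higher and 22.2% lower. At day 4 6 were higher and 2 lower, against 27.5% and 25.2% of all genes. At day 7 8 were higher, against 28.4% of all genes, and 0 were lower, against 26.6%. No member was lower at an unadjusted p under 0.05 at day 7, and DESeq2 and limma voom also called 0 lower. The members' median log2 fold change was 0.12 at day 2, 1.15 at day 4 and 2.08 at day 7, beside medians over all tested genes of -0.01, 0.01 and 0.01. All 5 MI libraries lay above all 5 sham libraries for 2 members at day 2, 5 at day 4 and 8 at day 7. This held for 20.3%, 28.2% and 29.3% of all genes. Here and below, overlap is judged on CPM by library totals, without the scaling factors that the fits apply. Added up, the 10 genes made 598 ± 78.0 CPM in MI and 550 ± 137 CPM in sham hearts at day 2, 1599 ± 487 and 738 ± 248 CPM at day 4, and 3419 ± 541 and 715 ± 155 CPM at day 7 (SD, n = 5 each).

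**Figure D1:**
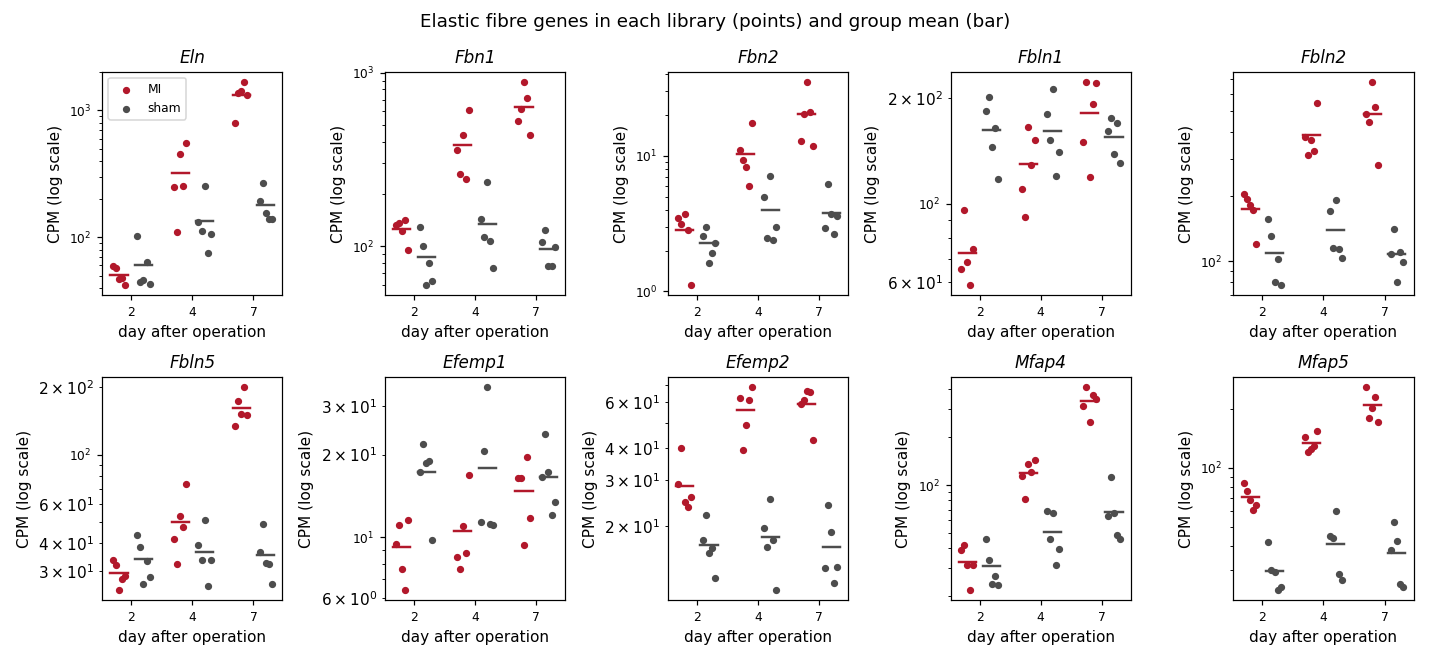
CPM of each elastic fibre gene (log axis) in the 30 libraries, by day after the operation. Points are libraries, red for MI and grey for sham, and short bars are group means of 5 libraries. At day 7 the MI points of 8 genes lie above all sham points, for Eln 790 to 1674 CPM against 138.5 to 266.5 CPM, while those of Fbln1 and Efemp1 overlap the sham points.

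Elastin itself (Eln, ENSMUSG00000029675, GRCm38 chr5:134702593-134747323, minus strand), the core protein of the fibre, had the largest fold change of the 10 genes at day 7. At day 2 it read 59.6, 56.8, 46.8, 47.6 and 42.2 CPM in the MI libraries and 102.7, 44.7, 46.5, 64.1 and 43.1 CPM in the sham libraries. These groups overlapped throughout, with the highest value in a sham heart, and the log2 fold change was -0.35 ± 0.22 (SE; edgeR adjusted p = 0.217). At day 4 the MI libraries read 247, 110.1, 452, 254.5 and 549 CPM, and the sham libraries 131.5, 112.3, 252, 75.2 and 105.3 CPM. Most MI hearts were above most sham hearts, but MI replicate 2 lay below sham replicates 1, 2 and 3, and the difference of 1.09 ± 0.45 on the log2 scale missed the threshold (edgeR adjusted p = 0.0708). DESeq2 called it higher (log2 1.07, DESeq2 adjusted p = 0.0364), as did limma voom (log2 1.13, limma adjusted p = 0.00871) and the edgeR fit of all 30 libraries (log2 1.08, edgeR adjusted p = 0.00680). Without sham replicate 3 it was 1.40 (edgeR adjusted p = 0.0300), and without MI replicate 2 it was 1.31 (edgeR adjusted p = 0.0160).

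At day 7 Eln read 790, 1373, 1431, 1674 and 1311 CPM in the MI libraries, against 192.5, 266.5, 156.7, 139.9 and 138.5 CPM in the sham libraries. The lowest MI heart was thus well above the highest sham heart, and the log2 fold change was 2.69 ± 0.21, or 6.45-fold (edgeR adjusted p = 1.49e-06). Between the infarcted hearts alone Eln was also higher at day 7 than at day 4, without overlap, by 2.03 ± 0.33 on the log2 scale (edgeR adjusted p = 0.000309). In sham hearts the same comparison gave 0.41 ± 0.32 (edgeR adjusted p = 0.688). As these are whole-tissue libraries, more producing cells and more RNA per cell cannot be told apart, here or for any gene below.

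The fibrillins, the long proteins that polymerise into microfibrils, were both called higher at days 4 and 7. Fbn1 (ENSMUSG00000027204, chr2:125300594-125507993, minus strand) encodes the main adult fibrillin, whose mutations cause Marfan syndrome in humans. At day 2 it read 132.5, 137.1, 122.6, 140.9 and 94.9 CPM in MI libraries and 129.2, 101.0, 60.0, 80.6 and 63.0 CPM in sham libraries. The MI values were mostly higher but overlapped, with 0.44 ± 0.18 on the log2 scale (edgeR adjusted p = 0.0628). It was called higher by DESeq2 (DESeq2 adjusted p = 0.0367) and limma voom (limma adjusted p = 0.0253), and by edgeR without sham replicate 1 (log2 0.63, edgeR adjusted p = 0.00361) or MI replicate 5 (log2 0.52, edgeR adjusted p = 0.0362). At day 4 the values were 357, 262, 440, 245 and 611 CPM in MI and 142.7, 113.8, 233, 107.3 and 74.6 CPM in sham hearts. By then the groups no longer overlapped, though only narrowly, and Fbn1 was 2.54-fold higher (log2 1.34 ± 0.33, edgeR adjusted p = 0.00626). At day 7 Fbn1 reached 526.5, 620, 883, 717 and 439 CPM in MI libraries and 106.0, 124.3, 77.5, 77.5 and 99.3 CPM in sham libraries. That gap is 5.75-fold (log2 2.52 ± 0.19, edgeR adjusted p = 1.01e-06), with every MI heart above every sham heart.

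Fbn2 (ENSMUSG00000024598, chr18:58008623-58210487, minus strand), the fibrillin best known from embryonic microfibrils, was the least abundant member. Its day 2 levels were 1.12 to 3.71 CPM in MI and 1.62 to 2.97 CPM in sham hearts, which overlapped (log2 0.23 ± 0.26, edgeR adjusted p = 0.507). At day 4 it read 10.9, 9.21, 8.28, 5.98 and 17.3 CPM in MI and 4.98, 2.47, 7.07, 2.41 and 2.997 CPM in sham hearts. MI replicate 4 fell below sham replicate 3, and the other MI libraries were above all sham libraries (log2 1.21 ± 0.32, edgeR adjusted p = 0.00652). At day 7 Fbn2 read 12.8, 20.1, 34.8, 20.9 and 11.9 CPM in MI libraries and 2.93, 6.17, 3.74, 2.64 and 3.57 CPM in sham libraries. All MI hearts were now higher, by 4.63-fold (log2 2.21 ± 0.31, edgeR adjusted p = 6.16e-05). Per kilobase of exon Fbn2 stayed far below Fbn1 in the same hearts, 1.52 against 52.5 CPM per kilobase at MI day 7.

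Of the small microfibril-associated proteins, Mfap5 (ENSMUSG00000030116, chr6:122505845-122529290, plus strand), which binds fibrillin, had the largest rise of the 10 genes at day 2. At day 2 it read 84.0, 75.8, 68.2, 60.8 and 64.4 CPM in MI libraries and 41.6, 29.8, 29.3, 23.6 and 24.5 CPM in sham libraries. The groups were already apart (log2 1.15 ± 0.13, edgeR adjusted p = 7.89e-06). It then reached 121.0 to 154.3 CPM in MI and 26.8 to 60.2 CPM in sham hearts at day 4 (log2 1.55 ± 0.17, edgeR adjusted p = 1.06e-05). At day 7 the values were 258.5, 180.1, 203.6, 231.4 and 172.6 CPM in MI and 37.8, 52.9, 42.0, 25.5 and 24.6 CPM in sham hearts. This 5.02-fold difference had no overlap either (log2 2.33 ± 0.19, edgeR adjusted p = 2.35e-06).

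Mfap4 (ENSMUSG00000042436, chr11:61485431-61488900, plus strand), a fibrinogen-related protein that binds tropoelastin and fibrillin, showed no early difference. Day 2 hearts held 21.8 to 41.6 CPM in MI and 23.4 to 45.6 CPM in sham hearts, nearly the same range (log2 0.01 ± 0.19, edgeR adjusted p = 0.984). At day 4 it read 113.5, 81.4, 135.5, 120.5 and 143.4 CPM in MI and 68.9, 45.6, 66.4, 31.5 and 39.5 CPM in sham libraries. All MI hearts were above all sham hearts, by 2.10-fold (log2 1.07 ± 0.20, edgeR adjusted p = 0.000910). The MI libraries then read 315, 413, 251, 371.5 and 349 CPM at day 7, and the sham libraries 63.7, 111.9, 66.5, 48.2 and 45.4 CPM. That is 4.45-fold higher, again without overlap (log2 2.15 ± 0.21, edgeR adjusted p = 6.64e-06).

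The 5 fibulins, secreted glycoproteins that share a C-terminal fibulin domain, did not all move one way. Their RefSeq promoter windows, 250 bases before to 50 bases after an annotated start on GRCm38.p6, are shown because 3 of the genes (Fbln2, Fbln5 and Efemp2) were higher at day 7 and 2 (Fbln1 and Efemp1) were not. The promoter table held windows for 6 of the 10 members, the fibulins and Fbn1, and where it lists several for a gene the one nearest to the gene's GENCODE start is printed. Capitals mark the GC box (GGGCGG) and the AP-1 motif (TGANTCA), searched on both strands and not overlapping each other here.
Fbln2, chr6:91212514-91212813, plus strand: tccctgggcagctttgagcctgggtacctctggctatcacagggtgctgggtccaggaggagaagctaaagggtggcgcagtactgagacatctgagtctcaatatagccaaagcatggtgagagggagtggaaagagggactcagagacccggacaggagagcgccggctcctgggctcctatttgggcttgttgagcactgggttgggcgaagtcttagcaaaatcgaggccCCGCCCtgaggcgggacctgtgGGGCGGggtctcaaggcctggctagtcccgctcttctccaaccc
Fbln5, chr12:101819070-101819369, minus strand: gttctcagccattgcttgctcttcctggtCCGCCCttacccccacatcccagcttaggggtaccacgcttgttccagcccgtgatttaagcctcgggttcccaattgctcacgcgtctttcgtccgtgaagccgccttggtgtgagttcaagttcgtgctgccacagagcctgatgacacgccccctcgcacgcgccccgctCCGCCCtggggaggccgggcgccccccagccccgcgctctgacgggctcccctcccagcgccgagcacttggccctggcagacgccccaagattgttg
Efemp2, chr19:5473696-5473995, plus strand: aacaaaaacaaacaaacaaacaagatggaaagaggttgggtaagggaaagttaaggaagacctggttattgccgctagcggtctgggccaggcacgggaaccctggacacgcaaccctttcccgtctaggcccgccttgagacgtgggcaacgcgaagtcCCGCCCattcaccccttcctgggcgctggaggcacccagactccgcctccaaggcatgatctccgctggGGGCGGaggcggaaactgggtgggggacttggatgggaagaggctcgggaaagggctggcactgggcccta
Fbln1, chr15:85205699-85205998, plus strand: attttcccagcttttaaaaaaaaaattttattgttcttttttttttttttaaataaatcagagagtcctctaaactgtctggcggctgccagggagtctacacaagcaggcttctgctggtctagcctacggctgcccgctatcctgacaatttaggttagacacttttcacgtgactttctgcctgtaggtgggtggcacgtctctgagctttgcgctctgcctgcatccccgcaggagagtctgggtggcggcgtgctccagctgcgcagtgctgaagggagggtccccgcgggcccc
Efemp1, chr11:28852955-28853254, plus strand: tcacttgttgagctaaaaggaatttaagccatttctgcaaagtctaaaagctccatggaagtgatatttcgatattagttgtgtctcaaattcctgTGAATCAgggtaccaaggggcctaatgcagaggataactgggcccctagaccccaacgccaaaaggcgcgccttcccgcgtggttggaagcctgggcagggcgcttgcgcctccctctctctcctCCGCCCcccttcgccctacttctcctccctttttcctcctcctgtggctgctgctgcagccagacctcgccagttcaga
The GC box letters occurred 2 times in each of the windows of Fbln2, Fbln5 and Efemp2, 1 time in that of Efemp1 and 0 times in that of Fbln1, and 35.7% of 32851 mouse promoter windows hold them. The windows of these genes not printed held other numbers, 0 for Fbln5, 5 and 7 for Efemp2 and 2 for Fbln1, so the count depends on the start chosen. The AP-1 letters occurred 1 time, in the window of Efemp1, against 7.81% of all windows. None of the 5 windows held TATAAA, found in 13.6% of windows, or the TEAD motif GGAATG, found in 14.7%. Such matches are a description of the sequence only.

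Fbln2 (ENSMUSG00000064080, chr6:91212455-91272540, plus strand), a microfibril and basement membrane fibulin that is prominent in developing heart valves and vessels, was higher in MI hearts at all 3 days. Its day 2 values were 204.6, 195.0, 182.6, 173.0 and 120.5 CPM in MI and 156.7, 130.9, 79.9, 102.7 and 77.8 CPM in sham libraries. Except for MI replicate 5 the MI values were above all sham values (log2 0.58 ± 0.18, edgeR adjusted p = 0.0194). This call was lost without sham replicate 3 (log2 0.49, edgeR adjusted p = 0.0506) and with no filter on low counts (edgeR adjusted p = 0.0829). At day 4 it read 376.5, 311.5, 365, 324 and 542.5 CPM in MI and 170.7, 115.6, 192.8, 113.7 and 104.0 CPM in sham hearts, and at day 7 481, 442, 680, 519 and 280 CPM in MI and 107.7, 141.2, 79.9, 110.8 and 99.0 CPM in sham hearts. At both days every MI heart was higher, by 2.44-fold (log2 1.29 ± 0.18, edgeR adjusted p = 5.66e-05) and 3.91-fold (log2 1.97 ± 0.20, edgeR adjusted p = 8.45e-06).

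Fbln5 (ENSMUSG00000021186, chr12:101746565-101819055, minus strand) and Efemp2 (ENSMUSG00000024909, chr19:5473954-5482517, plus strand; fibulin-4) are the fibulins that mice need to assemble elastic fibres, and their courses differed. Fbln5 tethers elastin to cells and microfibrils. Its day 2 range was 24.7 to 33.6 CPM in MI and 26.4 to 43.6 CPM in sham hearts (log2 -0.31 ± 0.12, edgeR adjusted p = 0.0543). This day 2 difference was called lower by DESeq2 (DESeq2 adjusted p = 0.0496) and limma voom (limma adjusted p = 0.0422), by edgeR with no filter on low counts (edgeR adjusted p = 0.0427), and in 3 of the 10 fits that left out 1 library, those without sham replicate 3, sham replicate 5 or MI replicate 1 (edgeR adjusted p = 0.0148 to 0.0474). At day 4 Fbln5 read 32.5 to 73.9 CPM in MI and 25.8 to 50.8 CPM in sham hearts (log2 0.27 ± 0.20, edgeR adjusted p = 0.283). The groups overlapped at both days. At day 7 it read 134.6, 173.8, 152.4, 200.2 and 150.2 CPM in MI and 36.7, 48.9, 32.6, 32.3 and 26.4 CPM in sham hearts. Now the lowest MI heart stood far above the highest sham heart, a 4.01-fold difference (log2 2.01 ± 0.14, edgeR adjusted p = 6.49e-07).

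Efemp2, which brings lysyl oxidase to tropoelastin, was by contrast higher from day 2. It read 29.1, 39.8, 24.8, 23.6 and 25.8 CPM in MI and 17.7, 22.1, 15.7, 16.4 and 12.6 CPM in sham libraries, without overlap (log2 0.66 ± 0.15, edgeR adjusted p = 0.00181). At day 4 its levels were 39.3 to 68.4 CPM in MI and 11.3 to 25.3 CPM in sham hearts (log2 1.45 ± 0.18, edgeR adjusted p = 2.14e-05). At day 7 they were 43.0 to 66.3 CPM in MI and 12.1 to 24.0 CPM in sham hearts (log2 1.64 ± 0.17, edgeR adjusted p = 8.19e-06). The MI hearts of days 7 and 4 overlapped widely for this gene (log2 0.07 ± 0.17, edgeR adjusted p = 0.825).

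Fbln1 (ENSMUSG00000006369, chr15:85205949-85286535, plus strand), a fibulin of elastic fibres and basement membranes, was lower at first. In day 2 libraries it read 65.4, 96.4, 68.4, 58.9 and 74.3 CPM in MI and 183.6, 201.8, 145.0, 164.8 and 117.7 CPM in sham libraries. All MI hearts lay below all sham hearts, by 2.39-fold (log2 -1.25 ± 0.14, edgeR adjusted p = 8.84e-06), and it was the only one of the 10 genes with such a gap, against 10.3% of all genes. At day 4 it read 110.6, 91.6, 165.5, 128.8 and 151.6 CPM in MI and 180.6, 152.3, 212.0, 120.0 and 140.6 CPM in sham libraries. The groups overlapped and the difference was smaller (log2 -0.49 ± 0.16, edgeR adjusted p = 0.0207). It lost its call without MI replicate 1 (log2 -0.43, edgeR adjusted p = 0.0545) or without the libraries with lung transcripts (log2 -0.38, edgeR adjusted p = 0.0885). At day 7 the ranges were 119.0 to 221.9 CPM in MI and 131.1 to 175.9 CPM in sham hearts (log2 0.02 ± 0.16, edgeR adjusted p = 0.906).

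Efemp1 (ENSMUSG00000020467, chr11:28853204-28926743, plus strand; fibulin-3), known from connective tissue such as fascia, read 9.46, 11.1, 7.64, 6.40 and 11.6 CPM in MI and 17.2, 21.8, 18.6, 19.0 and 9.78 CPM in sham libraries at day 2. Sham replicate 5 overlapped the MI range, and the other 4 sham hearts were above it (log2 -1.01 ± 0.20, edgeR adjusted p = 0.000907). At day 4 it read 8.47, 7.62, 11.01, 8.73 and 16.9 CPM in MI and 11.3, 20.5, 35.2, 11.2 and 11.1 CPM in sham libraries (log2 -0.92 ± 0.35, edgeR adjusted p = 0.0473). The highest sham values came from replicates 2 and 3, which held 178.5 and 439 CPM of 5 lung markers, while the other 3 sham libraries read 11.1 to 11.3 CPM of Efemp1 and at most 0.302 CPM of these markers. Without the libraries with lung transcripts the day 4 difference was -0.28 on the log2 scale and no longer called (edgeR adjusted p = 0.293), and the call was also lost in 6 of 10 fits that left out 1 library. Sham replicate 3 also had the highest mesothelial and adipocyte sums, 228.1 and 319 CPM, and the part of these markers in the Efemp1 value was not tested. At day 7 the ranges were 9.32 to 19.7 CPM in MI and 12.1 to 23.8 CPM in sham hearts (log2 -0.37 ± 0.21, edgeR adjusted p = 0.147).

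**Figure D2:**
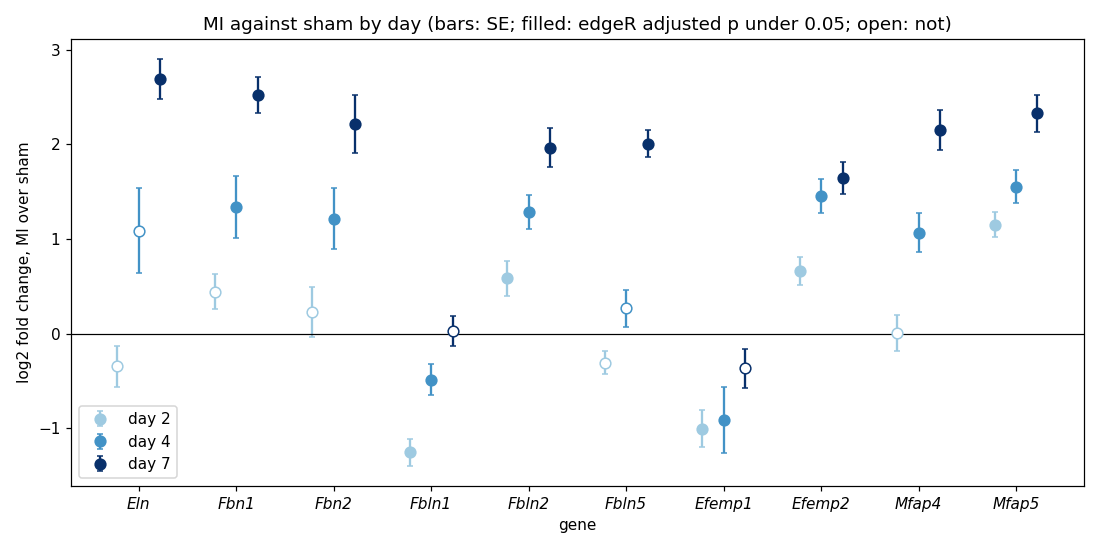
Log2 fold change of MI over sham hearts for each gene at days 2, 4 and 7 (light to dark blue), 5 against 5 libraries a day. Bars are standard errors, and filled points are those with an edgeR adjusted p under 0.05. Fbln1 and Efemp1 lie below 0 at days 2 and 4, and the other 8 genes lie between 1.64 and 2.69 at day 7.

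Whether the MI effect itself changed with time was tested as a difference of differences in 1 fit of all 30 libraries. From day 2 to day 7 the effect was higher for 9 of the 10 genes, against 10.1% of all genes, by 1.01 ± 0.26 for Efemp2 (edgeR adjusted p = 0.00649) up to 3.06 ± 0.47 for Eln (edgeR adjusted p = 6.97e-05) on the log2 scale. This includes Fbln1, at 1.30 ± 0.23 (edgeR adjusted p = 0.000307). Efemp1 was the one not called (0.66 ± 0.39, edgeR adjusted p = 0.251). Days 4 and 7 share the number in the sample descriptions. Between them Fbln5 alone of the 10 was called, at 1.76 ± 0.24 (edgeR adjusted p = 0.000124), where 0.702% of all genes were called higher. Eln (1.62 ± 0.46, edgeR adjusted p = 0.0803), Mfap4 (1.10 ± 0.31, edgeR adjusted p = 0.0789) and Fbn1 (1.20 ± 0.36, edgeR adjusted p = 0.104) had sizeable differences that missed the threshold. DESeq2 called these 3 and Fbln5, and limma voom called Eln, Mfap4 and Fbln5. Between days 2 and 4 Mfap4 alone was called (1.07 ± 0.32, edgeR adjusted p = 0.0478; 2.51% of all genes), and it lost the call in 14 of 20 fits that left out 1 library.

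Within the infarcted hearts 5 genes were higher at day 7 than at day 4, against 6.26% of all genes. Fbln5 was 3.25-fold higher (log2 1.70 ± 0.17, edgeR adjusted p = 9.64e-08), Mfap4 2.84-fold (log2 1.51 ± 0.22, edgeR adjusted p = 5.43e-05) and Eln 4.07-fold, as given above. Mfap5 (log2 0.63 ± 0.17, edgeR adjusted p = 0.0179) and Fbn2 (log2 0.96 ± 0.29, edgeR adjusted p = 0.0280) completed the 5. Mfap5 lost the call without MI day 7 replicate 1 (edgeR adjusted p = 0.0549), and Fbn2 in 5 of 10 such fits, those without MI day 4 replicates 1, 2, 3 or 4 or without MI day 7 replicate 3 (edgeR adjusted p up to 0.127). For 4 of the 5, all but Fbn2, the MI day 7 libraries were all above the MI day 4 libraries, where 3.85% of all genes did so. In sham hearts 0 of the 10 genes differed between days 7 and 4 in edgeR, and 0 at an unadjusted p under 0.05 or in DESeq2 and limma voom. There 0.0515% of all genes were called higher and 0.0708% lower, 19 genes in all, against 1692 genes at an unadjusted p under 0.05.

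Set on 1 scale as CPM per kilobase of exon, the genes ranked differently in infarcted and in sham hearts. The length used joins all annotated exons of a gene, 8098 bases for Eln and 1922 for Mfap4, and can exceed that of its mRNA. The order between genes depends on this length, and no other length was tried. At MI day 7 the order from the top was Mfap4 (176.8 CPM per kilobase), Eln (162.5), Fbln2 (75.4), Mfap5 (58.3), Fbn1 (52.5), Fbln1 (41.4), Fbln5 (23.5), Efemp2 (15.6), Efemp1 (7.22) and Fbn2 (1.52). In sham hearts at day 7 Fbln1 (35.6) and Mfap4 (34.9) led, followed by Eln (22.1), Fbln2 (16.9), Mfap5 (10.2), Efemp1 (8.16), Fbn1 (7.99), Fbln5 (5.12), Efemp2 (4.37) and Fbn2 (0.288). Fbln1 stood first in sham and sixth in MI hearts, at levels whose difference was not called. Ordered by group instead, MI day 7 had the highest mean of every gene except Efemp1, whose highest mean was in sham day 4. That Efemp1 mean, 17.9 CPM, includes 2 libraries with lung transcripts. Without them it was 11.2 CPM, below the means of sham day 2 (17.3 CPM) and sham day 7 (16.6 CPM). Neighbouring groups in the order of means mostly overlapped. MI day 4 and MI day 7 did not for Eln, Fbln5, Mfap4 and Mfap5 (3.85% of all genes). Sham day 4 and MI day 4 did not for Fbn1 (28.2% of all genes). The other exceptions were MI day 2 to MI day 4 for Fbln2 and Mfap5, and sham day 4 to MI day 2 for Mfap5. These join day 2 to day 4, whose numbers in the sample descriptions differ, and their share of all genes was not counted. The last was narrow, at most 60.2 CPM in sham day 4 and at least 60.8 CPM in MI day 2.

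**Figure D3:**
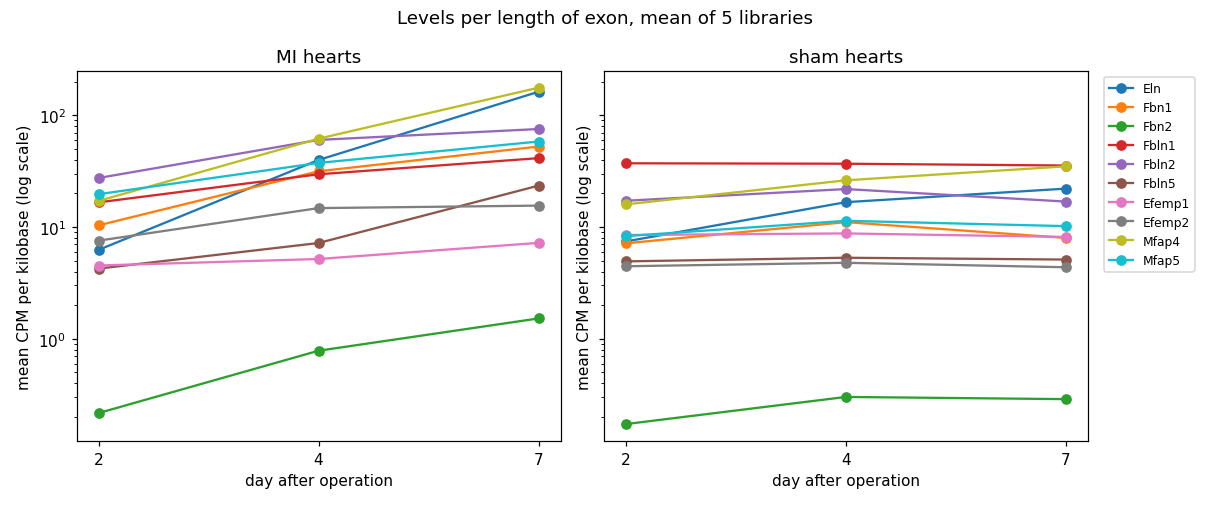
Mean CPM per kilobase of exon (log axis, 5 libraries a point) of the 10 genes by day, in MI hearts on the left and sham hearts on the right. In MI hearts Mfap4 and Eln reach 176.8 and 162.5 CPM per kilobase at day 7, against 34.9 and 22.1 in sham hearts.

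In some groups, though not all, 1 library was highest for most of the genes. MI day 4 replicate 5 had the highest value of its group for 9 of the 10 genes, all but Fbln1, and MI day 4 replicate 2 the lowest for 8. Sham day 7 replicate 2 was highest for all 10 and sham day 4 replicate 3 for 9, all but Mfap4. In MI day 2 the highest values were spread over all 5 libraries, and in MI day 7 over 4, of which replicate 3 was highest for 4 genes and lowest for 3. Markers of fibroblasts (Pdgfra, Col1a1, Col1a2, Dcn, Lum, Gsn, Tcf21 and Pdgfrl) summed to 8651 CPM in MI day 4 replicate 5, against 4622 to 6896 CPM in the other MI day 4 libraries. They summed to 5026 CPM in sham day 4 replicate 3 and 3901 CPM in sham day 7 replicate 2, the highest of their groups too. These last 2 libraries also carried lung transcripts. Sham day 2 replicate 5, lowest for 6 genes, had the lowest fibroblast sum of its group, 1737 CPM. MI day 7 replicate 5, lowest for 5 genes, had the lowest sum of its group, 6390 CPM. For some libraries the order of the sums and that of the genes differed. MI day 4 replicate 2, lowest for 8 genes, summed to 4733 CPM, above the 4622 CPM of replicate 4. Sham day 2 replicate 1, highest for 6 genes, summed to 3264 CPM, below the 3693 CPM of replicate 2. MI day 7 replicate 3 had the highest sum of its group, 12904 CPM, and was highest for 4 genes and lowest for 3. The part of these markers in the values of the elastic fibre genes was not tested.

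Across conditions, counts of called markers are to be read against the shares of all tested genes. These were 28.4% higher and 26.6% lower at day 7, 27.5% and 25.2% at day 4, and 24.1% and 22.2% at day 2. Counts of such short lists that lie near these shares are not a result about the cell type. Of the 8 fibroblast markers 7 were higher and 1 lower at day 7, 4 higher and 2 lower at day 4, and 0 higher and 3 lower at day 2. At day 7 their median log2 fold change was 1.26, beside 0.01 over all genes. Their sum was 6390 to 12900 CPM in MI and 2487 to 3901 CPM in sham libraries at day 7. All 6 myofibroblast markers (Postn, Cthrc1, Tnc, Acta2, Fn1 and Ddah1) were higher at days 4 and 7 and 5 of 6 at day 2, with sums of 2898 to 5464 CPM in MI and 487 to 878 CPM in sham libraries at day 7 (median log2 fold change 3.10). Smooth muscle markers (Myh11, Cnn1, Tagln, Mylk, Smtn and Lmod1) were mixed, 2 of 6 higher and 1 lower at day 7, with sums of 488 to 744 and 265.5 to 409 CPM in MI and sham libraries. Of 5 macrophage markers 4 were higher at day 2 and 5 at days 4 and 7, with sums of 1029 to 2195 CPM in MI and 322 to 705 CPM in sham libraries at day 7, and of 5 cardiomyocyte markers 3 were lower at day 2 and 5 at days 4 and 7. At day 7 pericyte markers were 2 of 6 higher and 3 lower, and endothelial markers 0 of 5 higher and 1 lower. Mesothelial markers were then 0 of 7 tested in either direction, and adipocyte markers 0 of 5 higher and 1 lower. At day 2 and again at day 4 pericyte markers were 0 higher and 4 lower. Endothelial markers were 0 higher and 2 lower at day 2, and 0 and 1 at day 4. Mesothelial markers were 0 higher and 4 lower at day 2, and 0 and 0 at day 4. Of the cartilage and valve markers 2 of 4 were higher and 1 lower at day 7, with sums of 117.5 to 174.0 CPM in MI and 27.3 to 41.9 CPM in sham libraries. Of the skeletal muscle markers the 1 tested was higher, and of the lung markers 0 of 4 tested were called. No marker of the fibroblast, myofibroblast or smooth muscle lists was at 0, and the part of these cell types in the results was not tested.

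At sham day 7 the 3 libraries with lung transcripts were all above the other 2 for 5 of the 10 genes (Eln, Fbln5, Efemp1, Mfap4 and Mfap5) and overlapped them for the other 5. For Eln they read 156.7 to 266.5 CPM, against 138.5 and 139.9 CPM without, and for Fbn1 77.5 to 124.3 CPM, against 77.5 and 99.3 CPM without. At sham day 4 the 2 libraries with them were above the other 3 for Efemp1 alone. MI day 7 replicate 2, with 1642 CPM of Sftpc plus Scgb1a1, was highest of its group for Fbln1 (221.9 CPM) and Mfap4 (412.9 CPM). The share of all genes in such an order was not counted, so these counts are not a result about the 10 genes. The part of the lung transcripts in the levels was not tested. All 8 day 7 calls held without these libraries, with Eln 2.97 on the log2 scale (edgeR adjusted p = 0.000526) and Mfap5 2.86 (edgeR adjusted p = 0.000157). Not all MI libraries kept in that fit were free of lung transcripts. MI day 7 replicates 3, 4 and 5 held 22.0, 10.7 and 24.0 CPM of Sftpc plus Scgb1a1, and replicate 1 held 0 CPM. Sham day 7 replicates 4 and 5 held 0.1256 and 0.1275 CPM.

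**Figure D4:**
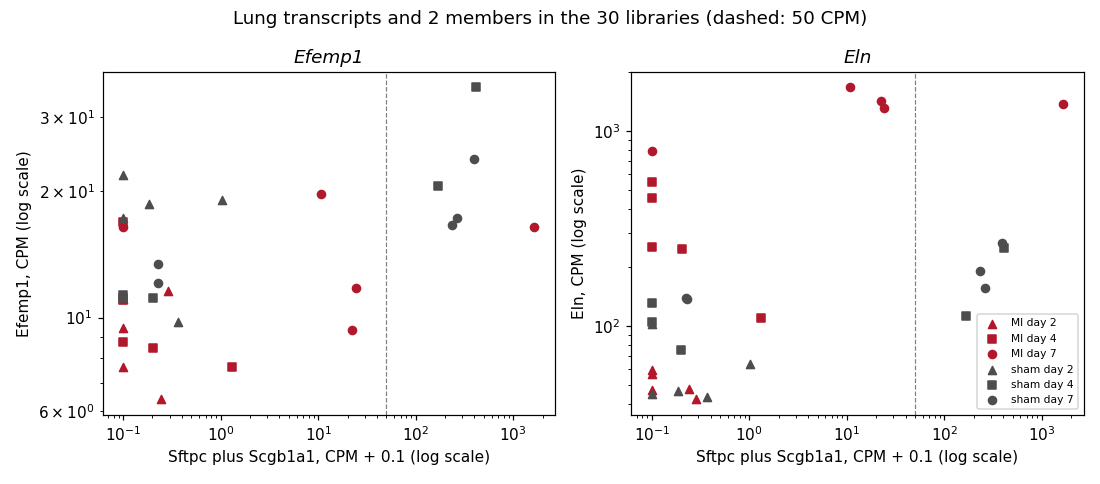
CPM of Efemp1 (left) and Eln (right) against the summed CPM of the lung genes Sftpc and Scgb1a1 plus 0.1, both on log axes, in the 30 libraries. Red is MI and grey sham, with triangles for day 2, squares for day 4 and circles for day 7, and the dashed line is at 50 CPM. The 2 sham day 4 libraries right of the line hold 20.5 and 35.2 CPM of Efemp1, against 11.1 to 11.3 CPM in the other 3.

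The partners of these genes are given next, from 7 lists of 60 genes. Their counts are to be read against the shares of all tested genes, 24.1% higher and 22.2% lower at day 2, 27.5% and 25.2% at day 4, and 28.4% and 26.6% at day 7. The enzymes that crosslink elastin and collagen (Lox and Loxl1 to Loxl4) were all 5 higher at each of the 3 days, with a median log2 fold change of 1.28, 1.99 and 2.09. Lox, the best studied of them, averaged 621 ± 219 CPM in MI hearts at day 7 and 38.8 ± 17.9 CPM in sham hearts (SD, n = 5 each), 14.1-fold higher (log2 3.82 ± 0.32, edgeR adjusted p = 3.85e-06). Latent TGF-beta binding proteins, only some of which hold TGF-beta on microfibrils, had 1 gene higher and 2 lower at day 2. At day 4 2 were higher and 1 lower, and at day 7 3 of 4 were higher (median 0.91). Ltbp2, which binds fibrillin-1 and fibulin-5, averaged 245 ± 69.9 CPM in MI hearts at day 7 and 11.9 ± 4.83 CPM in sham hearts, an 18.0-fold difference (log2 4.17 ± 0.26, edgeR adjusted p = 4.67e-07).

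Among ADAMTS and ADAMTS-like proteins, which bind or cut microfibril proteins, 2 of 9 were higher at day 2, a share near the 24.1% of all genes, and 1 was lower, against 22.2%. At day 4 5 were higher and 1 lower, and at day 7 6 and 0 (28.4% and 26.6% of all genes), with a median of 1.23. Adamtsl2, a fibrillin-1 ligand, averaged 91.9 ± 9.09 CPM in MI hearts at day 7 and 14.8 ± 2.10 CPM in sham hearts (SD, n = 5 each; log2 2.44 ± 0.11, edgeR adjusted p = 1.68e-08). The other microfibril and elastin-associated proteins were mixed: 1 of 9 tested was higher and 3 lower at day 2, 4 of 10 higher and 3 lower at day 4, and 3 higher and 1 lower at day 7. Their median log2 fold change at day 7 was 0.11. Mfap2, the closest relative of Mfap5, averaged 30.6 ± 6.31 CPM in MI hearts at day 7 and 6.76 ± 2.45 CPM in sham hearts (log2 1.98 ± 0.21, edgeR adjusted p = 9.34e-06). Egflam, which encodes pikachurin, was lower, at 10.1 ± 3.19 and 21.1 ± 2.32 CPM (log2 -1.26 ± 0.18, edgeR adjusted p = 5.92e-05).

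Genes whose products break down elastic fibres, or restrain that, come next. Of the elastin-degrading proteases tested, 4 of 8 were higher and 1 lower at day 2, 8 of 9 higher at day 4 and 6 of 8 higher at day 7, where their median log2 fold change was 1.91. Ctss, an elastase of macrophage lysosomes, averaged 312 ± 104 CPM in MI hearts at day 7 and 44.8 ± 17.8 CPM in sham hearts (log2 2.61 ± 0.28, edgeR adjusted p = 1.50e-05). Protease inhibitors had 2 of 5 tested higher and 1 lower at day 2, 2 higher at day 4 and all 5 higher at day 7 (median 0.91). Timp1, an inhibitor of matrix metalloproteinases, averaged 99.2 ± 26.5 CPM in MI hearts at day 7 and 12.3 ± 6.70 CPM in sham hearts (log2 2.83 ± 0.30, edgeR adjusted p = 1.48e-05). Receptors of elastic fibre proteins, integrins and the elastin receptor complex among them, had 5 of 13 higher and 1 lower at day 2 (24.1% and 22.2% of all genes), 10 and 2 at day 4 (27.5% and 25.2%), and 9 and 2 at day 7 (28.4% and 26.6%; median 0.67). Lgals3, galectin-3, was the largest rise at day 7 (131 ± 53.9 CPM in MI and 17.3 ± 7.56 CPM in sham hearts; log2 2.73 ± 0.36, edgeR adjusted p = 0.000102). Itgb6, an integrin subunit that activates latent TGF-beta, fell to 13.9 ± 9.78 CPM in MI, against 34.1 ± 3.73 CPM in sham hearts (log2 -1.50 ± 0.51, edgeR adjusted p = 0.0300).

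The genes whose 6 group means moved most like each member were sought among the 10035 genes averaging 10 CPM or more, by the root mean square difference of centred log2(CPM + 1) means. Nearest to Fbn1 was Fstl1, at 0.08, with 1868 CPM in MI and 311 CPM in sham hearts at day 7. Nearest to Eln was Sfrp2, at a wider distance of 0.35, with 202.7 and 21.7 CPM in MI and sham hearts at day 7. For Fbln5 it was Fxyd6 (0.16), for Mfap4 Itgbl1 (0.15), for Mfap5 Dok1 (0.13) and for Fbn2 Adamts2 (0.09). Fbln2 lay nearest to Dclk1 (0.06), Efemp2 to Iqgap1 (0.08), Fbln1 to Ecm2 (0.08) and Efemp1 to Wfikkn2 (0.08). Second in the same order were Adamts12 for Fbn1, Col8a2 for Eln, Fmod for Fbln5, Pdgfrl for Mfap4, C1qtnf6 for Mfap5, Tenm3 for Fbn2, Anxa1 for Fbln2, Tlr7 for Efemp2, Galnt17 for Fbln1 and C7 for Efemp1. None of these 20 was itself one of the 10 genes, though Fbn2 averaged under 10 CPM and so was not among the genes searched. The likeness rests on 6 group means from the same libraries.

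Several members overlap a gene on the opposite strand. The exons of Efemp2 share 173 bases with Mus81 (26.3 CPM on average) and those of Mfap4 share 89 bases with Mapk7 (12.5 CPM), while Eln, Fbn1 and Fbn2 overlap Gm30003, Gm9913 and Gm26507. The library kit marks strand, but the strand setting of the counting is not given in the sources used here, so reads of these overlaps cannot be assigned with certainty.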

How the data were processed

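Heart RNA of 30 mice was sequenced in directional libraries (paired reads, 150 bases), as the labels' protocols state. What the authors deposited are raw counts for each Ensembl gene on GRCm38, and the submitters' processing notes list bcl2fastq 2.20.0 and featureCounts as tools; no aligner or strand setting was found in the sources used here. Totals ran from 7841930 to 14070017 counts per library, which sets the precision of low values. The 37 genes of the mitochondrial genome read 0 in every library. Symbols (97.5% of the identifiers, 99.9% of the counts), positions and exon lengths came from GENCODE release M21.

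Libraries were grouped by operation and day. CPM used library totals. Each MI against sham comparison was a fit of the 10 libraries of that day, and differences between days came from 1 fit of all 30. Both used edgeR 4.0.16 under R 4.3.3: filterByExpr needed 10 counts and a total of 15, factors were TMM, and the robust quasi-likelihood test was run after it had been tested on simulated data with known changes. That simulation gave every gene the same relative spread between libraries, so it does not show how the test behaves on these data. Standard errors were derived from the F statistic. P-values were adjusted over all genes of a comparison by the Benjamini-Hochberg method, threshold 0.05.

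The 10 members, 7 pathway lists and 12 marker lists were chosen with earlier results of these data known, so none is independent evidence. Of each pathway list the called gene with the largest change in each direction at day 7 (mean at least 1 CPM) is named, and 2 genes of nearest pattern per member. Alternatives were median-ratio factors, DESeq2 1.42.0, limma 3.58.1 voom with sample weights, other filters, a replicate block, other sets of libraries, and fits leaving out libraries with lung transcripts or each library in turn. No 2 libraries of a group agreed within sampling noise. Figures were drawn with matplotlib 3.10.9.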

Additional observations from a re-analysis of the deposited data

Results flagged for a closer look

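One library stood apart within its group. Fbln2 read 542.5 CPM in MI day 4 replicate 5, with 376.5 CPM the next highest of that group, and the gap was 0.719 of the group's range, above the limit of 0.71 for 5 samples. It was the only one of 60 groups of values tested, and chance alone flags about 1 in 20.

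The MI effect differed between days for several members, by a test of the difference itself in edgeR. From day 2 to day 7 it was higher on the log2 scale by 3.06 for Eln, 2.11 for Fbn1, 2.02 for Fbn2, 1.30 for Fbln1, 1.41 for Fbln2, 2.34 for Fbln5, 1.01 for Efemp2, 2.17 for Mfap4 and 1.20 for Mfap5. From day 4 to day 7 it was higher by 1.76 for Fbln5, and from day 2 to day 4 by 1.07 for Mfap4. Day 2 libraries carry another number in their sample descriptions than the later ones, and within each day MI and sham libraries share it.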

How the results depend on the processing

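At day 7 the same 8 members were called higher under each of the 8 alternatives and in each of the 10 fits that left out 1 library. For the effect of day 7 minus day 2 the same 9 members were called under 8 alternatives and in 20 such fits.

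Counts that moved by over 1.5 times were these, and their causes were not tested. At day 4 the 2 members called lower became 1 with no filter on low counts, 1 with a minimum mean of 1 CPM, 1 with the replicate block and 0 without libraries with lung transcripts. For the effect of day 4 minus day 2, 1 member called higher became 0 with median-ratio factors, 4 with DESeq2, 5 with voom, 0 with no filter, 3 without libraries with lung transcripts and 2 with only the libraries compared, while all genes called, 746, became 1218 with DESeq2, 1802 with voom and 475 with no filter. For day 7 minus day 4, 1 member became 4 with DESeq2 and 3 with voom, and 158 genes became 419 with DESeq2, 289 with voom, 84 with no filter, 18 without libraries with lung transcripts and 89 with only the libraries compared. For MI day 7 against MI day 4, 5 members became 3 with no filter, and 1951 genes became 815 with only the libraries compared. For sham day 7 against sham day 4, 19 genes became 105 with DESeq2, 103 with voom, 12 with no filter, 0 without libraries with lung transcripts and 5 with only the libraries compared.

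Leaving out 1 library at a time gave 0 to 2 members lower at day 4, 0 to 5 members and 416 to 1236 genes for day 4 minus day 2, 1 to 3 members and 70 to 294 genes for day 7 minus day 4, 1145 to 2184 genes for MI day 7 against day 4, and 0 to 31 genes for sham day 7 against day 4. Where a group kept fewer libraries, the rest were taken to vary like the others.

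Signs turned for differences near 0 that were not called. Mfap4 at day 2 was -0.0133 in the fit of 30 libraries, and -0.089 to 0.184 leaving out a library. Fbln1 at day 7 was -0.0065 with the replicate block, -0.0694 without libraries with lung transcripts and -0.0624 to 0.144 leaving out a library. Leaving out a library also gave -0.146 to 0.436 for Efemp1 in day 4 minus day 2 and -0.0284 to 0.16 for Efemp2 in MI day 7 against day 4. For day 7 against day 4 in sham hearts voom gave 0.0649 for Fbn2, 0.0424 for Fbln1, 0.0380 for Fbln5 and 0.162 for Efemp1, and without libraries with lung transcripts Fbln1 was 0.0345 and Efemp1 0.182. There leaving out a library gave -0.286 to 0.1996 for Fbn2, -0.131 to 0.0258 for Fbln1, -0.185 to 0.0492 for Fbln5 and -0.2405 to 0.252 for Efemp1.

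Same-numbered libraries deviated together with correlations of -0.19 to 0.23, 4 of 15 over 0.1, and the samples were treated as unpaired. These correlations alone cannot exclude a pairing. The replicate block changed 4 of 80 member values, among them Fbn1 at day 2 (0.49, edgeR adjusted p = 0.00811), Fbln5 at day 2 (-0.29, edgeR adjusted p = 0.0156) and Efemp1 at day 4 (-0.85, edgeR adjusted p = 0.0509). Scaling CPM by TMM moved 0 of 60 group means beyond 1 SD. No day 2 library held lung transcripts at 50 CPM or more, so leaving such libraries out gave no value there. Fbn2, with counts from 12 up, is the least precise member.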
